A study of Mus musculus with 4 samples.

Results

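A group of 10 extracellular matrix genes was followed through the open chromatin of mouse heart nuclei, namely Dcn, Lum, Bgn, Fmod, Ogn, Omd, Aspn, Prelp, Dpt and Fbln2, which are 10 of the 21728 protein-coding genes considered. They were chosen by name as small leucine-rich proteoglycans and matrix glycoproteins, and all 10 were found in the annotation. Because Dcn and Lum are neighbours, as are Aspn, Omd and Ogn, the genes form 7 separate loci, each made of the gene bodies and 50 kb to either side.

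The nuclei came from whole hearts of male C57BL/6 mice aged 8 to 12 weeks that carried both the NuTRAP reporter and the Cdh5-Cre transgene, in which Cre driven by the promoter of the endothelial cadherin Cdh5 switches on GFP in nuclei of endothelial descent. Flow cytometry separated GFP+ (endothelial) from GFP- (non-endothelial) nuclei from such hearts, so both groups share strain, genotype, sex and age. The paper lists both parent lines under mixed-background strain names. ATAC-Seq, in which the Tn5 transposase inserts adapters into accessible DNA, was run on 2 replicate libraries of each group, with 100 to 50000 nuclei per reaction. Each population has a single list of peaks called from both of its replicates, 78912 peaks for GFP- and 65008 for GFP+, so no spread between replicates can be given and no difference below was tested. The lists hold no read counts, so the depth behind a peak is unknown.

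Small leucine-rich proteoglycans are secreted proteins whose curved leucine-rich repeats bind collagen fibrils and set their diameter and spacing, and several of them hold growth factors of the TGF-β family in the matrix. In the heart they are mainly products of fibroblasts and related stromal cells. Dcn (decorin), Bgn (biglycan) and Aspn (asporin) form a class of close relatives, Lum (lumican), Fmod (fibromodulin), Prelp and Omd (osteomodulin) another, and Ogn (osteoglycin, also called mimecan) belongs to a further class. Dpt (dermatopontin) is a small matrix protein that binds decorin, and Fbln2 (fibulin-2) is a glycoprotein of basement membranes and elastic fibres.

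The peak sets carried the marks of the sort, with an exception. Of 10 endothelial marker genes, 8 had a peak at the start in the GFP+ list and 5 in the GFP- list, and the start of Cdh5 itself ranked 85.3 in GFP+ and 18.0 in GFP-, where a rank is the percentile of a peak by its area within its own list, from 0 to 100. Of 10 fibroblast markers, 8 had a start peak in GFP- and 2 in GFP+. The 4 with the largest rank difference were Col1a1, Col1a2, Tcf21 and Pdgfra. They had one in GFP- at ranks of 95.6, 78.3, 83.8 and 70.1 and none in GFP+. Gsn (83.4 in GFP- and 77.1 in GFP+) and Medag (85.2 and 17.6) had one in both lists, and Mfap5 and Pi16 in neither. These start peaks are those at the gene-level 5′ end. With every annotated transcript start counted, a choice made after seeing the data, Col1a2 and Tcf21 still had none in GFP+, but Col1a1 ranked 80.7 there (95.6 in GFP-) and Pdgfra 87.0 (96.5 in GFP-). By that count 10 fibroblast markers had a start peak in GFP- and 4 in GFP+, and 6 and 10 of the endothelial markers did. The share of all protein-coding genes by that count is not given here. The exception is the cardiomyocyte list, whose 10 markers had 10 start peaks in GFP- and 9 in GFP+, or 10 with every transcript start. GFP- nuclei are a mixture of all other heart cells, and in such bulk nuclei a smaller share of a cell type and less open chromatin per cell cannot be told apart.

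Across the 10 genes, start peaks were more often present in the GFP- list. A start peak, one that overlaps the 5′ end of the gene within 250 bp, was present for 8 of 10 genes in GFP- and for 3 of 10 in GFP+. Dcn, Bgn, Omd, Aspn and Dpt had it in GFP- alone, Ogn, Prelp and Fbln2 had it in both lists, and Lum and Fmod had it in neither. The 7 loci held 109 GFP- and 62 GFP+ peaks, a ratio of 1.76 against 1.21 for the whole lists. Of the GFP- peaks 49 of 109 had no counterpart in GFP+, where 30.3% of the whole GFP- list had none, and of the GFP+ peaks 5 of 62 had none in GFP-, against 13.4% of the whole GFP+ list. The loci were not alike: in 5 of them GFP- peaks were at least 2 times as many, while Prelp and Fmod had nearly even numbers.

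Stretches of DNA that carry this pattern are shown here so that the values below can be read beside them. Each is 300 bases of the mouse genome, build GRCm38.p6 (the mm10 assembly), 5′ to 3′ on the plus strand. The 10 short words searched on both strands, within 150 bp of a peak's summit, were AACAGCTG for TCF21, TGANTCA for AP-1, CAGGAAGT for ETS factors, CCATTGT for SOX17, ACATTCC for TEAD, AGATAAG for GATA factors, CTAAAAATA for MEF2, AACCACA for RUNX, TTGCNNAA for C/EBP and TATAAA for the TATA box. Capitals mark every match to any of them. The first 4 stretches are centred on summits of GFP- peaks without overlap in GFP+ and the last 2 on summits found in both lists.
Dpt intron 1, GFP- alone, chr1:164798593-164798892: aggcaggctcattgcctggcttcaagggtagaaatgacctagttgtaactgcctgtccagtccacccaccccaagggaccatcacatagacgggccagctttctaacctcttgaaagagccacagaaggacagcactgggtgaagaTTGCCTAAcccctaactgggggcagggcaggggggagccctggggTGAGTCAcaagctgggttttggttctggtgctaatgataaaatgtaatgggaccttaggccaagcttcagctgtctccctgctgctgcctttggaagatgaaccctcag
Fbln2 upstream, GFP- alone, chr6:91185534-91185833: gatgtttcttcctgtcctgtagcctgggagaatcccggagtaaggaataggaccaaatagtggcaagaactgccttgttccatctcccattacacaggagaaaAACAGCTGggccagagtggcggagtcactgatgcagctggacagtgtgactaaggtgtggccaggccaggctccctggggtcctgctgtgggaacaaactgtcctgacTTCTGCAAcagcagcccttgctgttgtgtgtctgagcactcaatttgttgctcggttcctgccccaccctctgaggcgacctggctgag
Dcn upstream, GFP- alone, chr10:97469405-97469704: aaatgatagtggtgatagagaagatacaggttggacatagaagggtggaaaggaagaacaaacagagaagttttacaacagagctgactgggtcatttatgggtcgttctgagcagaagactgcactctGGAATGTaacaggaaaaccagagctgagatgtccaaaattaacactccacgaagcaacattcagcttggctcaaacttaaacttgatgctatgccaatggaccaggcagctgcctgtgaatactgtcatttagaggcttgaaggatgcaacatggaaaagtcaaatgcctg
Bgn upstream, GFP- alone, chrX:73479687-73479986: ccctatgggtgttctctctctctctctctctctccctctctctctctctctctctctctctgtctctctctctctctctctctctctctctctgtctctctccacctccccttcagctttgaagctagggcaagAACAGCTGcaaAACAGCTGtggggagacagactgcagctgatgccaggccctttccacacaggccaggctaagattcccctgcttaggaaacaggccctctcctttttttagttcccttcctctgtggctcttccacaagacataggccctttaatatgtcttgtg
Ogn start, in both lists, chr13:49607726-49608025: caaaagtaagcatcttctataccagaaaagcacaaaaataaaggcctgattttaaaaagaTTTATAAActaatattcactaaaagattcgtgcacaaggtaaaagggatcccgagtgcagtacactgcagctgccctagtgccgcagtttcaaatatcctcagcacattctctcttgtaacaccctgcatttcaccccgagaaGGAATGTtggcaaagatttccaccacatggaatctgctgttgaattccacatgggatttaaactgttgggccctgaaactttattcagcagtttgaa
Prelp upstream, in both lists, chr1:133961758-133962057: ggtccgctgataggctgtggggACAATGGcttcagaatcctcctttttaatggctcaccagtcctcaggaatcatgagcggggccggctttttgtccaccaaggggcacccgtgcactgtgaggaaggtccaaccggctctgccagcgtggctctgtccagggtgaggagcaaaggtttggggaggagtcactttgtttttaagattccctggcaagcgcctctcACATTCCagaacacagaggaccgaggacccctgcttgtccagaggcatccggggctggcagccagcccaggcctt

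Both upstream stretches of Fbln2 and Bgn hold the TCF21 word, the Bgn stretch at positions 135 and 146 and the Fbln2 stretch at position 104, counted from 1 at the 5′ end. The Dpt stretch holds a C/EBP word at position 147 and an AP-1 word at 192, and the Dcn and Ogn stretches each hold a TEAD word read from the other strand. The Ogn stretch also holds the TATA word at position 63 and, overlapping it, on the other strand at 61. The Prelp stretch holds a SOX17 and a TEAD word. These are matches of letters and not measured binding.

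At the starts, the largest gap between lists belonged to Dcn. Its GFP- start peak (chr10:97479240-97479805) had an area of 1234, a rank of 66.1 and a summit -log10 p of 6.19, and the nearest GFP+ peak lay 42584 bp away. Bgn, on the X chromosome, had a GFP- start peak of rank 54.7, and Dpt, on chromosome 1, had a GFP- start peak of rank 51.5. The nearest GFP+ peaks lay 6645 bp from the Bgn start and 10088 bp from the Dpt start. These 3 peaks sat near or above the middle of their list.

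The start peaks of Omd and Aspn were weaker, at ranks of 30.3 and 11.2 in GFP-, and neither gene had a start peak in GFP+. Their summit -log10 p values were 4.60 and 4.0, below the stricter limit of 5 tried as an alternative. Ogn, in the same cluster, was the only one of these neighbours with a start peak in both lists. Its GFP- peak (347 bp, area 1147) ranked 64.1 and its GFP+ peak (316 bp, area 538) ranked 40.1, a gap of 24.0 rank points. The GFP+ peak had a summit -log10 p of 4.66, so under the stricter limit the Ogn start was open in GFP- alone.

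The remaining shared starts were those of Prelp and Fbln2, which also had the highest ranks of all 10 genes. Prelp ranked 78.1 in GFP- and 68.4 in GFP+. Fbln2 ranked 78.9 in GFP- and 58.7 in GFP+. The gap was 9.70 points at Prelp and 20.3 at Fbln2, and every shared start was therefore higher in GFP-. Lum missed the definition narrowly, with a GFP- peak in its exon 1 that begins 325 bp downstream of the start and ranks 30.8, while Fmod had no peak nearer than 4738 bp in GFP- and 8742 bp in GFP+.

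**Figure D1:**
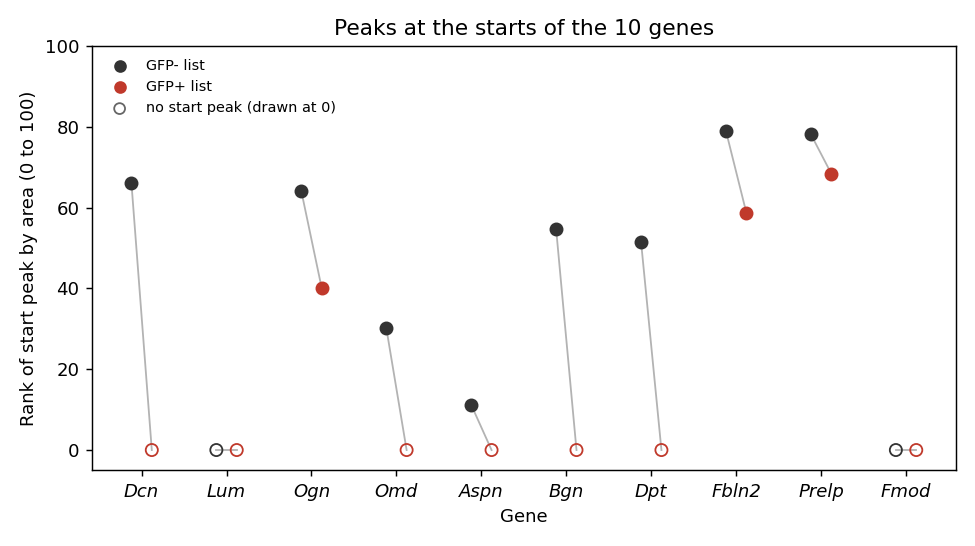
Rank by area of the start peak of each gene (y axis, 0 to 100 within each list) in the GFP- list (black) and the GFP+ list (red), with open circles at 0 where a list has no start peak. The 5 genes Dcn, Omd, Aspn, Bgn and Dpt have a filled black and an open red point, Ogn, Fbln2 and Prelp have both filled with black above red, and Lum and Fmod have both open.

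These counts can be set beside all protein-coding genes. A start peak was present in GFP- for 56.9% of genes and in GFP+ for 54.8%, so the 8 of 10 in GFP- lay above and the 3 of 10 in GFP+ below the share of all genes. A start peak in GFP- alone was present for 3.11% of genes, and in GFP+ alone for 0.999%, against 5 and 0 of the 10 genes. Of the 12360 genes with a GFP- start peak, 5.46% lacked one in GFP+, against 5 of the 8 here. Over the 8 genes with any start peak, the median rank difference (GFP+ minus GFP-, with 0 for no peak) was -27.1, and over all 12577 such genes it was -0.833.

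The Dcn-Lum locus on chromosome 10 was the most one-sided of the 7. It spans 193 kb and held 9 GFP- peaks and 1 GFP+ peak, and 8 of the 9 GFP- peaks had no overlap in GFP+. The only GFP+ peak (rank 46.8) lay 42.7 kb upstream of Dcn and overlapped a GFP- peak of rank 58.2. No GFP+ peak was listed in the body of either gene.

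The highest GFP- peak of this locus was not at a start but 10.1 kb upstream of Dcn (chr10:97469258-97470061), with an area of 2013 and a rank of 77.9, and its summit is shown among the sequences. Next came a peak 24.6 kb downstream of the start of Lum at rank 68.9, then the Dcn start itself. Between the genes there were 2 GFP- peaks, the stronger of which lay 28.0 kb before Lum at rank 53.3, and intron 7 of Dcn held a weak one at rank 19.5. Kera (keratocan), a further member of the family that lies downstream of Lum, had no start peak in either list.

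The Ogn-Omd-Aspn locus on chromosome 13 held 14 GFP- peaks and 4 GFP+ peaks, and all 4 GFP+ peaks overlapped a GFP- peak. The 3 genes lie on the opposite strand within Cenpp, a gene for a centromere protein, so a peak inside them is also inside Cenpp. The strongest peak of the window, at rank 96.2 in GFP- and 97.0 in GFP+, is at the shared start of Cenpp and Nol8 and not at a matrix gene. Without it, the GFP+ peaks of this locus lie at ranks from 28.3 to 40.1.

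Among the peaks near the matrix genes, GFP- alone held a pair in intron 1 of Aspn, at ranks of 66.8 and 49.7, which lie 2.34 and 1.40 kb from the start and are both stronger than the Aspn start peak at 11.2. A peak in intron 3 of Aspn was shared, at 39.2 in GFP- and 28.3 in GFP+. Ogn had further GFP- peaks in its exon 2 (rank 34.3) and intron 3 (rank 26.3), and Omd a second one 0.543 kb upstream (rank 17.1). Ecm2, a leucine-rich matrix gene upstream of Aspn, had a start peak in GFP- alone at rank 29.2, and Tes3-ps had none.

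**Figure D2:**
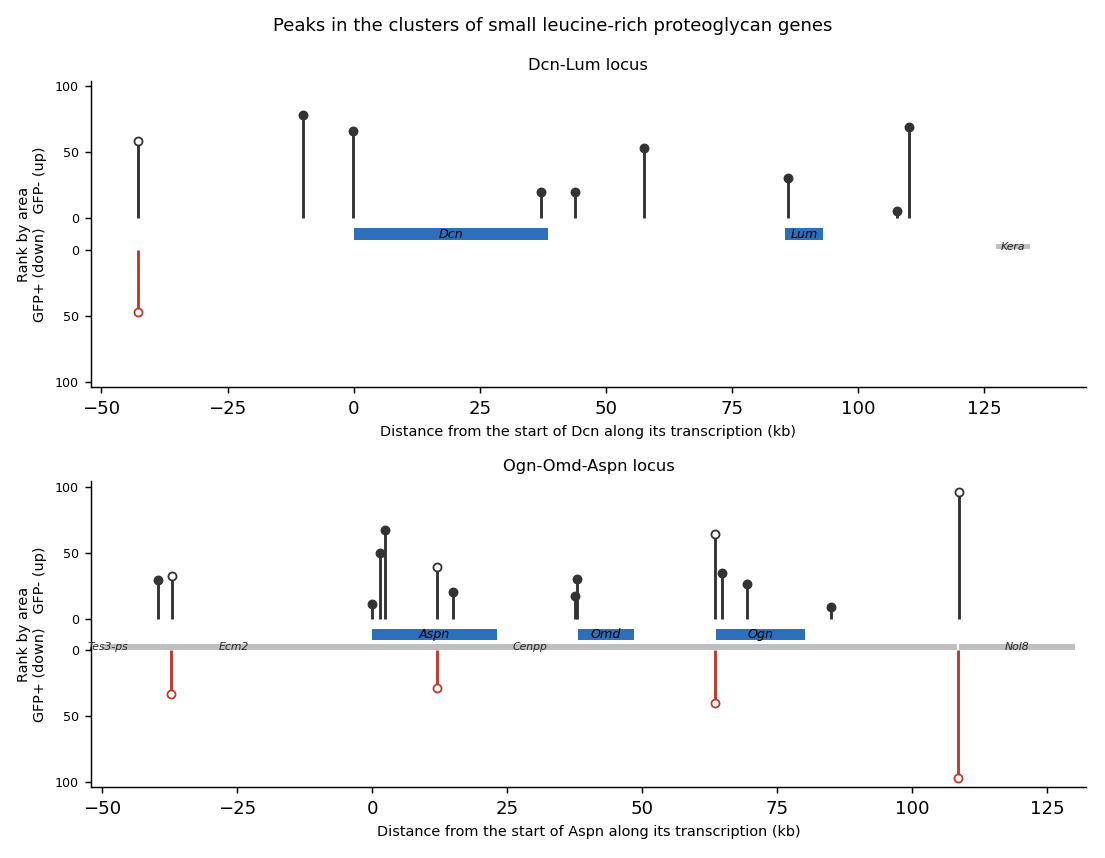
Peaks of the Dcn-Lum and Ogn-Omd-Aspn loci by distance from the start of Dcn or Aspn (x axis, kb) and rank by area (y axis, GFP- upwards in black, GFP+ downwards in red). Filled heads have no overlap in the other list, blue bars are the genes described and grey bars their neighbours; 8 of 9 and 10 of 14 black heads are filled and no red head is.

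Dpt had the strongest single peak found in GFP- alone. A 1011 bp peak in intron 1 (chr1:164798202-164799212) had an area of 4651, a rank of 91.7 and a summit -log10 p of 12.0, and lay 2.10 kb from the start. Another, in intron 2 and 13.0 kb from the start (chr1:164809243-164810007), had an area of 2609 and a rank of 82.9. Both exceeded the Dpt start peak, and GFP+ listed nothing at either place.

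The Dpt locus as a whole held 13 GFP- and 5 GFP+ peaks, and all 5 GFP+ peaks were shared. One of these was strong in both populations: 25.9 kb upstream of Dpt, rank 88.1 in GFP- and 84.7 in GFP+, with areas of 3613 and 2767. Another, in intron 2 at 17.8 kb, ranked 48.5 in GFP- and 0.626 in GFP+, almost the smallest peak of its list. Dpt thus held a peak of nearly equal rank in both lists and intronic peaks of similar rank in GFP- alone within the same window, in which no other protein-coding gene lies.

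At Bgn the 11 GFP- and 5 GFP+ peaks were spread mainly upstream. The GFP- peaks without overlap included 1 at 3.77 kb (rank 61.9, the stretch with a pair of TCF21 words) and 1 at 16.0 kb (rank 58.3). A shared peak 6.79 kb upstream ranked 74.8 in GFP- and 37.7 in GFP+. In intron 7 the order turned, with rank 31.0 in GFP- and 42.2 in GFP+.

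The highest peak of the Bgn window belongs to the start of Haus7, a gene for a spindle protein, at 92.8 in GFP- and 88.9 in GFP+. Trex2 and Atp2b3, the other neighbours, had no start peak. The 1 peak of the Bgn window in GFP+ alone lies inside Haus7, at rank 10.8.

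Fbln2, the longest of the 10 genes at 60.1 kb, had 28 GFP- peaks, more than any other of the 7 loci, and 14 GFP+ peaks, fewer than Prelp or Fmod. That ratio is exactly at the limit of 2 times. All 14 GFP+ peaks were shared and 13 GFP- peaks were not. Upstream, 4 GFP- peaks without overlap followed each other between 28.2 and 24.3 kb before the start, with ranks of 77.3, 83.8, 58.4 and 29.9. They stand next to a peak at 30.9 kb that was shared (89.0 in GFP- and 71.2 in GFP+).

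Inside Fbln2, intron 9 held a GFP- peak without overlap at rank 73.5, and intron 2 held 3 more at ranks from 39.4 to 55.4. Intron 1 went the other way at 2 places: 1.61 kb from the start the ranks were 12.8 in GFP- and 57.4 in GFP+, and 12.6 kb from the start 11.8 and 40.8. Its other peaks favoured GFP-. The one at 6.14 kb ranked 54.4 in GFP- and 34.4 in GFP+. Those at 8.87, 10.4 and 16.6 kb were in GFP- alone, at ranks of 0.426, 26.8 and 18.0. The start peak between the upstream and intronic peaks favoured GFP-, so neighbouring peaks of the same gene differed in opposite directions. Hdac11, whose 3′ end reaches into the window, has its own start outside it.

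**Figure D3:**
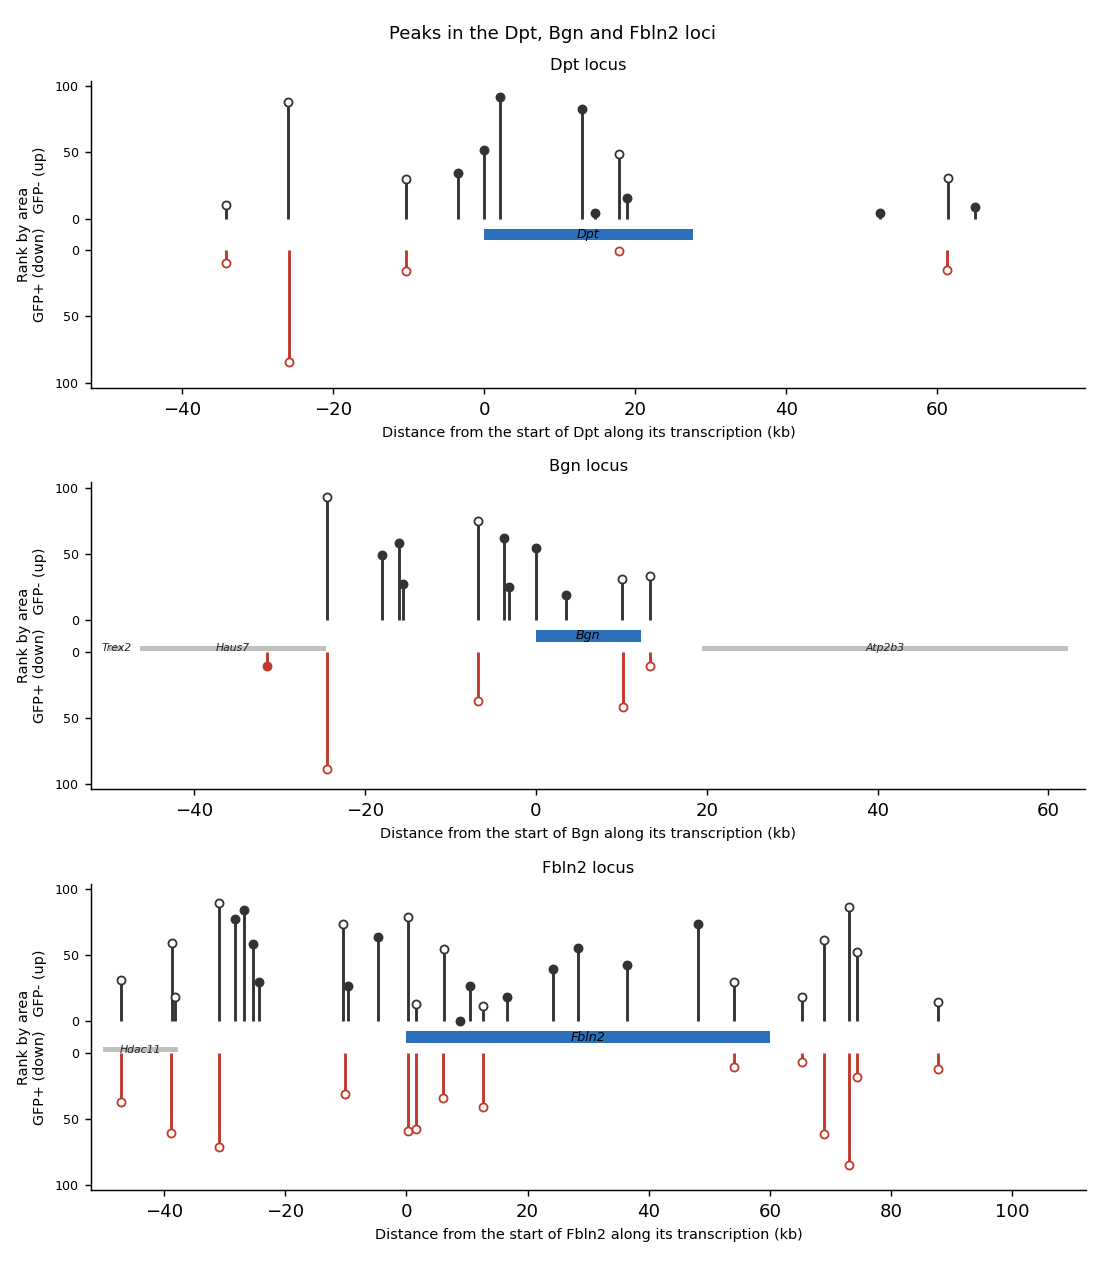
Peaks of the Dpt, Bgn and Fbln2 loci by distance from each gene's start (x axis, kb) and rank by area (y axis, GFP- upwards in black, GFP+ downwards in red), with filled heads for peaks without overlap in the other list. The tall filled black heads at Dpt (91.7 and 82.9) have no red counterpart, and in Fbln2 intron 1 the red stems at 57.4 and 40.8 are longer than the black ones above them.

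Prelp and Fmod, which lie on the same stretch of chromosome 1, behaved unlike the other loci. The Prelp locus held 14 GFP- and 15 GFP+ peaks, with 13 of each shared. In intron 1 of Prelp the ranks were 86.6 and 83.1 in GFP- and 75.4 and 78.6 in GFP+, and 40.5 kb upstream 87.1 and 79.6. The gene body held 4 peaks in each list, all shared.

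Large differences at Prelp were few and ran both ways. A peak 38.4 kb upstream ranked 81.6 in GFP- and 23.5 in GFP+, and a peak about 12.8 kb downstream of the start, next to the start of Optc (opticin), ranked 77.9 and 20.8. Further downstream, a peak about 31.0 kb from the start ranked 10.1 in GFP- and 40.7 in GFP+, and GFP+ alone had peaks at ranks of 46.9 and 21.5. At 20 points or more, 2 places favoured GFP- and 3 favoured GFP+. Optc had no start peak by the 250 bp definition in either list.

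The Fmod locus held 20 GFP- and 18 GFP+ peaks, of which 18 and 16 were shared. Most lay downstream towards Btg2, an antiproliferation gene whose start peak ranked 98.8 in GFP- and 99.5 in GFP+. Only 5 GFP- and 4 GFP+ peaks had Fmod as their nearest protein-coding start. In intron 2 of Fmod a shared peak ranked 61.4 in GFP- and 54.0 in GFP+, and a GFP- peak without overlap ranked 17.0.

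**Figure D4:**
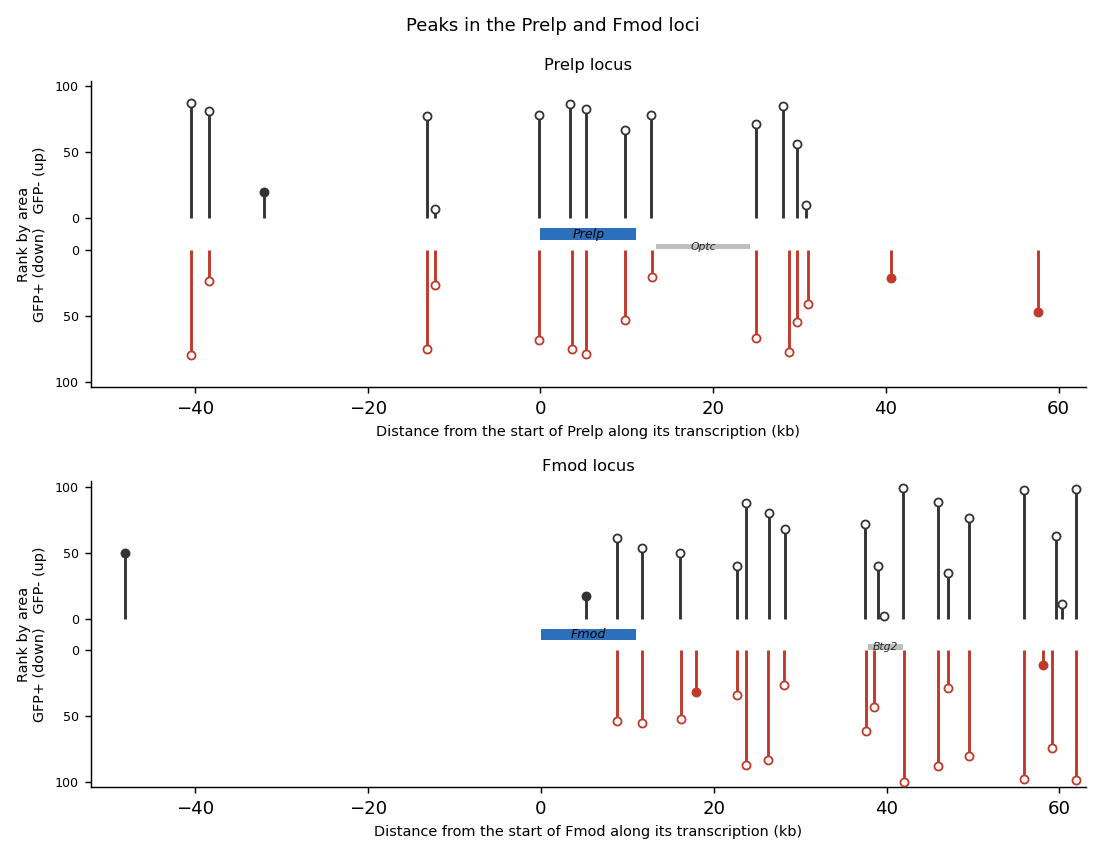
Peaks of the Prelp and Fmod loci by distance from each gene's start along its transcription (x axis, kb) and rank by area (y axis, GFP- upwards in black, GFP+ downwards in red). Nearly all heads are open, that is shared: 13 of 14 and 18 of 20 black heads, and 13 of 15 and 16 of 18 red ones.

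Counted over single genes, at least 2 times as many GFP- as GFP+ peaks lay within 50 kb of 8 of the 10 genes, all but Prelp and Fmod. Windows of neighbouring members overlap, so these 8 genes stand for 5 separate loci. Of 16260 protein-coding gene loci with at least 5 peaks in both lists together, 7.29% met this limit, and 0.800% met the reverse, which none of the 10 genes did. The median ratio of GFP- to GFP+ peaks over these loci was 1.11. When both lists were held to the same number of peaks, Dcn-Lum, Ogn-Omd-Aspn and Bgn kept the 2-fold difference, while Dpt (8 against 5) and Fbln2 (24 against 14) lost it.

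Overlap with the other list was present for 55.0% of the 109 GFP- peaks and 91.9% of the 62 GFP+ peaks, against 69.7% and 86.6% of the whole lists. Among the 54 GFP- peaks of rank 50 or above, 17 stood alone, or 31.5%, against 13.6% of such peaks in the list. Prelp and Fmod gave 23 of these 54 and none of the 17. Without these 2 loci, 46 of 75 GFP- peaks (61.3%) stood alone, and in them 3 of 34 (8.82%), against 30.3% of the whole GFP- list. These 2 loci were set apart after their shared peaks were seen, so this split follows from that choice.

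Overlapping peaks of both lists were merged into 111 regions. Their median rank difference (GFP+ minus GFP-) was -15.3, against -3.90 over all 86649 regions. By locus it was -30.8 at Dcn-Lum, -26.0 at Bgn, -22.2 at Ogn-Omd-Aspn, -20.3 at Fbln2, -15.3 at Dpt, -6.06 at Prelp and -0.300 at Fmod. A difference of 20 points or more towards GFP- was present in 44 regions (39.6%, against 23.8% of all), and towards GFP+ in 6 (5.41%, against 7.63%). With lists of equal length the median was -4.35 beside 1.26 over all regions, so the shift is smaller on that scale but of the same sign.

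**Figure D5:**
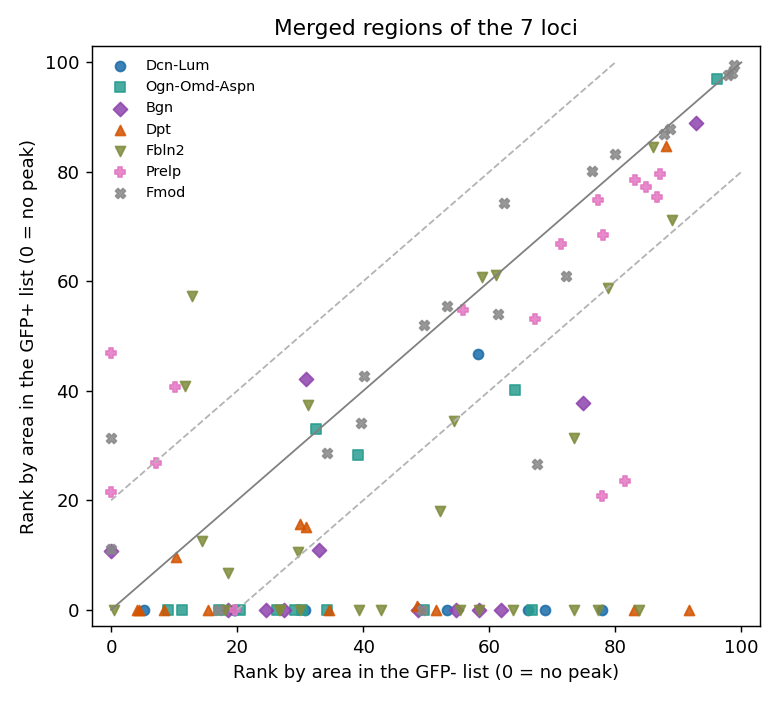
Each of the 111 merged regions by its rank in the GFP- list (x axis) and in the GFP+ list (y axis), with 0 for no peak, coloured by locus; the solid line marks equal ranks and the dashed lines a difference of 20 points. Points of the 5 loci other than Prelp and Fmod crowd on the x axis, and 44 regions lie on or below the lower dashed line and 6 on or above the upper one.

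By place, introns held the largest number of GFP- peaks without overlap, 18 of 28, and upstream flanks held 17 of 34. Over the whole GFP- list 30.3% of peaks had none. Shares by place over the whole lists are not given here, so a general difference between places cannot be told apart. In the downstream flanks 5 of 35 GFP- peaks stood alone, and 17 of those 35 belong to the Fmod window. All 10 GFP+ peaks in introns of the members overlapped a GFP- peak, as did 86.6% of the whole GFP+ list at any place. In no gene body did the GFP+ list hold a peak of its own, but this rested partly on weak GFP- peaks. In Fbln2 intron 1, the GFP+ peaks of rank 57.4 and 40.8 met GFP- peaks of rank 12.8 and 11.8. With lists of equal length the Fbln2 locus, flanks included, held 3 GFP+ peaks without overlap, and under the stricter limit 2.

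The promoters of 8 of the 10 genes were matched by symbol in the RefSeq promoter table of GRCm38.p6, which gives 250 bases before to 50 after a start; Dcn and Lum were not. All 8 lay below the median of all promoters in CpG, with an observed to expected ratio from 0.0943 (Omd) to 0.422 (Aspn). The median was 0.766 for genes with start peaks in both lists, 0.471 for genes with a start peak in GFP- alone and 0.591 for all 20061 promoters. For genes with a start peak in GFP+ alone it was 0.437, and for genes with none in either list 0.235. Fmod, Dpt and Omd lay below this last value and the other members above it. Prelp, Ogn and Fbln2, whose starts were in both lists, had ratios of 0.326, 0.303 and 0.376 and so lay well under the median of genes of that kind.

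The TATAAA word occurred in the promoters of Dpt, Aspn and Ogn, 3 of 8, and in 12.1% of all promoters. Those of Dpt and Aspn are given below, each 5′ to 3′ on the plus strand, which is also the strand of its gene, because these starts were open in GFP- alone and hold the word; capitals mark matches to the 10 words.
Dpt promoter, chr1:164796413-164796712: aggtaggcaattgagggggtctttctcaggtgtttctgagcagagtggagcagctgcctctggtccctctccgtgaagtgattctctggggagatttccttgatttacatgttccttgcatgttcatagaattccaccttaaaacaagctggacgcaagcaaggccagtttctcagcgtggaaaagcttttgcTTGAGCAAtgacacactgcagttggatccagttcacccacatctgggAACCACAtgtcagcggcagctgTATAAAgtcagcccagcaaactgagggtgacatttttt
Aspn promoter, chr13:49544193-49544492: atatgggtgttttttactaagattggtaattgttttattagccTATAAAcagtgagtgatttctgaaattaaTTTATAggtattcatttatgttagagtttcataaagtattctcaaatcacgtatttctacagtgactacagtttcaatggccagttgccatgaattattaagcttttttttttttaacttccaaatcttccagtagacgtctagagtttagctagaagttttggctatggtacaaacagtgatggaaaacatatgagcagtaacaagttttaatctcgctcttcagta
In the Dpt promoter the word begins at position 263 of 300, downstream of the annotated start, and a C/EBP word and a RUNX word precede it. In the Aspn promoter it begins at position 44 and, on the other strand, at 73. In the Ogn promoter the word begins at position 24 and overlaps its own copy on the other strand at 22. The matches in Aspn and Ogn thus lie far upstream of the annotated start. None of the 8 promoters held the TCF21, AP-1, ETS, SOX17 or MEF2 word, which 1.31%, 7.0%, 3.32%, 2.92% and 0.419% of all promoters held.

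Around summits, no word was common among the 49 GFP- peaks that stood alone. The TCF21 word was present in 4 of 49, against 6.40% of all GFP- peaks that stood alone and 2.59% of those that were shared. The AP-1 word was in 5 (18.0% of all such peaks), the C/EBP word in 8 (17.6%), the TEAD word in 3 (6.83%), the RUNX word in 3 (7.21%) and the ETS word in 2 (4.16%). The remaining words were in 3 for SOX17 (3.18%), 1 for GATA (4.70%), 0 for MEF2 (1.17%) and 6 for the TATA box (11.7%). Counts this small set no order among the words.

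Other matrix genes gave a similar order of lists. Of 11 further small leucine-rich proteoglycan genes, 9 had no start peak, Ecm2 had one in GFP- alone and Tsku (tsukushi) had one in both, at 94.4 in GFP- and 84.6 in GFP+. Of 20 elastic fibre and fibulin genes, 16 had a start peak in GFP- and 10 in GFP+, with 7 in GFP- alone, 1 in GFP+ alone and a median rank difference of -28.2. The largest differences in that list were at Lox, which crosslinks collagen and elastin (79.4 in GFP-), Mfap4 (75.9) and Fbn2 (66.8), both of microfibrils, and Ltbp2, a latent TGF-β binding protein (62.5), all without a GFP+ start peak. Of 29 other matrix proteoglycans and glycoproteins, 21 had a start peak in GFP- and 16 in GFP+, with 5 in GFP- alone and a median of -16.7. Among all protein-coding genes 3.11% had a start peak in GFP- alone and 0.999% in GFP+ alone. Over those with any start peak the median was -0.833. Vcan (versican) at 80.3, Pcolce, an enhancer of procollagen processing, at 73.0, Svep1 at 71.1 and Mgp, an inhibitor of calcification, at 68.2 had theirs in GFP- alone. Over all annotated starts Svep1 and Mgp kept this, but Vcan ranked 97.0 in GFP- and 73.2 in GFP+, and Pcolce 93.6 and 74.5. By that count 4 of the 11 further small leucine-rich proteoglycan genes had a start peak in GFP- and 2 in GFP+. Of the elastic fibre and fibulin genes 20 had one in GFP- and 13 in GFP+, and of the 29 other matrix genes 23 and 20 did. The counts of the 10 genes described here did not change. No share of all protein-coding genes by that count is given here to set beside these counts.

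Marker genes of cell types that GFP- nuclei could include moved to different degrees. Fibroblast markers had a median start rank difference of -69.7, from -95.6 to -6.32, and so moved in the same direction as the 10 matrix genes. At the gene-level 5′ end 6 of 10 had a peak in GFP- alone. Over all annotated starts 6 did as well, but Col1a1 and Pdgfra were then in both lists, and the median was -59.3. Mural cell markers had 9 start peaks in GFP- and 5 in GFP+, with a median of -13.4, and included Pdgfrb (83.0), Notch3 (49.6) and Rgs5 (16.2) in GFP- alone and Kcnj8 in both (83.4 in GFP- and 49.1 in GFP+). Cardiomyocyte markers had a median of -1.81, and Tnnt2, Ttn and Pln were open in both lists. Myl3 had a peak at its gene-level 5′ end in GFP- alone (86.5), but over all its annotated starts it ranked 90.2 in GFP- and 89.4 in GFP+. Endothelial markers had a median of 50.7, with Egfl7 (93.0), Cldn5 (87.9) and Emcn (61.7) open in GFP+ alone at the gene-level 5′ end. Egfl7 also had a GFP- peak, at 72.6, over all its starts. Of 3 further genes of this list, named after their values were seen, Tek went the other way, at 81.1 in GFP- and 54.1 in GFP+, and Pecam1 and Erg had no peak at the 5′ end but ranked 66.9 and 57.5 in GFP+ over all starts, with none in GFP-. The part of each cell type in the values of the matrix genes was not tested.

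Markers of rarer cells were mostly without start peaks. Of 10 macrophage markers 2 had one, C1qb in GFP- alone at 19.5 and Cd68 at 31.8 in GFP- and 16.8 in GFP+, and of 8 lymphocyte markers none did. Of 5 epicardial markers only Wt1 had one, at 61.8 in GFP- and 83.0 in GFP+.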

How the data were processed

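Sorted heart nuclei of 2 groups, GFP- and GFP+, were measured by ATAC-Seq, and samples were assigned by their labels. The authors trimmed reads (fastp) and aligned them to mm10 by bowtie2 (the submitters' processing notes give Bowtie2 2.3.5.1, SAMtools 1.19 and CASAVA 1.4), filtered and deduplicated them with SAMtools and Picard, brought libraries to equal depth by downsampling and ran Genrich to call peaks, leaving out mitochondrial and Y chromosome reads and blacklisted regions. The deposited signal is the area under the caller's curve over a peak and is not scaled between lists. The deposited score is a scaled area per bp, limited to 1000, and 83.9% of GFP- and 82.0% of GFP+ peaks are at that limit. Each deposited peak also carries a -log10 p-value for its summit. Both replicates entered each list. Downsampling evens depth, but the longer GFP- list still makes an overlap missing in GFP+ more likely.

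Here peaks were ranked by area within their list, counted as shared at 1 bp of overlap, and placed on GENCODE M21 genes. Sequence came from GRCm38.p6. Python 3.11.15, numpy 2.4.6, pandas 2.3.3, scipy 1.17.1, pysam 0.24.0 and matplotlib 3.10.9 were used, and the steps were checked on simulated data with planted overlaps, rank changes and words. The 10 genes, the gene lists and the words were chosen with earlier results of these data known. The text names all members, every protein-coding gene within their loci, and up to 4 genes per list with the largest start rank difference. Further genes of the fibroblast and endothelial lists were named after their values were seen. The result of 1 further marker list is not reported here. Alternatives changed the peak threshold, list length, start window and definition, overlap, flank and ranking measure.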

Additional observations from a re-analysis of the deposited data

How the results depend on the processing

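The counts and medians taken over all 7 loci changed direction under none of the alternatives tried, and 31 of 46 values stayed close to those reported. Single loci did turn: Fmod went from 20 GFP- against 18 GFP+ peaks to 17 against 18 with lists of equal length, and Prelp from 14 against 15 to 11 against 9 under the stricter limit. The median over all regions of the lists went from -3.90 to 1.26 with lists of equal length. With summit -log10 p of at least 5, the loci held 63 GFP- and 31 GFP+ peaks. With lists of equal length, 82.3% of GFP+ peaks were shared, against 79.2% of the whole GFP+ list, and the median rank difference was -4.35. With 50% overlap of both peaks, 82.3% of GFP+ peaks were shared, against 73.7% of the whole GFP+ list. With flanks of 25 kb there were 37 GFP+ peaks, 97.3% of them shared. Counting only peaks nearest to a member's start, chosen after seeing the data, gave 72 GFP- peaks (41.7% shared) and 31 GFP+ peaks (96.8% shared). Leaving out Prelp and Fmod, also chosen after seeing the data, gave 38.7% of GFP- peaks shared, 29 GFP+ peaks (96.6% shared) and a median of -22.0. Changes of flank and of the peaks or loci counted leave the whole lists as they were, with 69.7% of GFP- and 86.6% of GFP+ peaks shared. The shorter and stricter lists hold fewer peaks by construction; the cause of the other changes was not tested. Start peaks in GFP- numbered 6 to 9 and in GFP+ 2 or 3. No paired analysis was possible because each population has a single list called from both replicates, and no replicate could be left out for the same reason. A peak missing from a list may lie just under its threshold, and the lists hold no read counts.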
